A study of Mus musculus with 35 samples.

Results

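Natural killer type lectin receptors and their adaptors were followed across CD8+ T cells of liver, lung, small intestine and blood and across the whole tissues. The set held 9 genes chosen by name: the receptors Klrd1, Klrk1, Klrc1, Klrc2, Klrb1c, Klre1 and Klra7 and the adaptors Fcer1g and Tyrobp. A probe matched 8 of them, with 11 probes in all, out of 20886 named genes and 39429 probes on the array. No probe matched Klrc2. A flag from the scanner software marks a spot as well above background, and 4 members (Klrd1, Klrb1c, Fcer1g and Tyrobp) carried it on 3 or more arrays of some group and were tested.

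The samples came from healthy wild-type C57BL/6 female mice of 8 to 16 weeks. Resident memory cells (Trm) were CD8b+ CD103+ cells taken from liver (n = 5), lung (n = 6) and intestine (n = 6) by 2 rounds of positive magnetic selection. Effector memory cells (Tem, n = 6) were CD8b+ CD62L- cells of the blood of those mice. Liver, lung, intestine and blood mononuclear cells (PBMC) were also measured whole and unsorted, with n = 3 each. No group carried a transgene or a treatment, and the RNA of every group passed through 2 rounds of amplification.

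These receptors belong to the C-type lectin-like family, and most were first described on natural killer (NK) cells, although memory and effector CD8+ T cells carry several of them. Klrd1 encodes CD94, which pairs with Klrc1 (NKG2A) as an inhibitory receptor or with Klrc2 (NKG2C) as an activating one, both for the non-classical class I molecule Qa-1. Klrk1 encodes NKG2D, which binds stress-induced ligands. Klrb1c encodes NK1.1, the antigen used to identify NK cells in C57BL/6 mice, Klre1 a receptor described in rodents, and Klra7 the inhibitory receptor Ly49G for class I. Receptors that lack a signalling motif of their own depend on adaptors: Tyrobp encodes DAP12 and Fcer1g the Fc receptor gamma chain, both with an activation motif and both abundant in myeloid cells too.

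Klre1, Klrd1 and Klrk1 are consecutive protein-coding genes on chromosome 6, and Klrc2 lies next to Klrc1 there, while Tyrobp lies next to Hcst on chromosome 7. Of the 4 tested members, Klrb1c and Fcer1g had an entry in the RefSeq promoter table (GRCm38.p6, windows of 300 bases around the start of the gene), and these are shown as the receptor and the adaptor whose levels and sequence can be set side by side. They lie at chr6:128788592-128788891 on the minus strand for Klrb1c and at chr1:171234300-171234599 on the minus strand for Fcer1g. Capitals mark GAGGAA, a purine-rich ETS-type motif, and TGTGGT, a RUNX motif, and a T-box motif, GGTGTG, was also searched. Both strands were read, and a TGTGGT can share its last letters with a GGTGTG.
Klrb1c: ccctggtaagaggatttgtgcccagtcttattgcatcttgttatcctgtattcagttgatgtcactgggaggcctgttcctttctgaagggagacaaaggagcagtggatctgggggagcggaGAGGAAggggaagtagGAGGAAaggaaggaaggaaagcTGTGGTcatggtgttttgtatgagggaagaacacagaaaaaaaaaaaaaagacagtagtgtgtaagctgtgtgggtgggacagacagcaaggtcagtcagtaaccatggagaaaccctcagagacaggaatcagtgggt
Fcer1g: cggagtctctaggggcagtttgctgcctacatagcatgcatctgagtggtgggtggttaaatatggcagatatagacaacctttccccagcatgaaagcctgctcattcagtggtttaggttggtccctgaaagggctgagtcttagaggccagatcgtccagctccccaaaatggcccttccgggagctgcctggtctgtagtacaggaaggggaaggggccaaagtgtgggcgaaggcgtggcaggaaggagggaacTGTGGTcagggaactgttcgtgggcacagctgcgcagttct
The Klrb1c window held GAGGAA at -127 and -111 and TGTGGT at -89 relative to the start of the gene, and the Fcer1g window held TGTGGT at 9. Over 32851 promoters of the same length, 28.3% held GAGGAA, 16.8% TGTGGT and 19.0% GGTGTG, on either strand. A match describes letters only. Klrd1 and Tyrobp had no entry.

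All sorted groups carried T cell transcripts. Of 9 T cell markers with a probe, 8 (Cd3d, Cd3e, Cd3g, Cd8a, Cd8b1, Cd2, Cd5 and Lck) were above background on every sorted array, and Itgae, which encodes CD103, had no matched probe. The share of probes above background was 12.2% to 35.5% per sorted array and 7.80% to 64.6% per whole-tissue array. Liver Trm 3 (12.2%), whole liver 2 (64.6%) and PBMC 1 (7.80%) lay farthest from their groups in this share. Tem 3 (35.5%) did not stand apart in it, but its probes never above background had the lowest median of the sorted arrays (-10.18 on the log2 scale below). Results that rest on these 4 arrays are given without them where leaving them out changes a call. Levels are log2 intensities relative to the 75th percentile of each array over probes detected on all arrays compared, so 0 is that percentile and 1 unit is a 2-fold step. The arrays lay on 9 slides, of which 6 held sorted cells and 3 whole tissues. Slide, scan day and sorted against whole therefore cannot be told apart. The labels do not tie arrays to animals, and p-values cover only the spread among the arrays. In such bulk RNA, fewer cells of a type and less RNA per cell cannot be told apart.

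Detection set Klrd1 and the adaptors apart from the other receptors. Klrd1 was above background on 22 of 35 arrays: 2 of 5 liver Trm, 6 of 6 lung Trm, 5 of 6 intestine Trm and 6 of 6 Tem, but only 3 of 12 whole-tissue arrays. Tyrobp was above background on 32 of 35 arrays and Fcer1g on 28. The brighter of 2 Klrb1c probes reached that mark on 7 arrays, of which 3 were Tem and 1 intestine Trm, and the other probe on none. Klre1 reached it on 5 arrays, Klra7 on 4 by at least 1 of its 3 probes, and Klrk1 and Klrc1 on 1 array each. That array was whole liver 2 for both, the array with 64.6% of all probes above background.

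**Figure D1:**
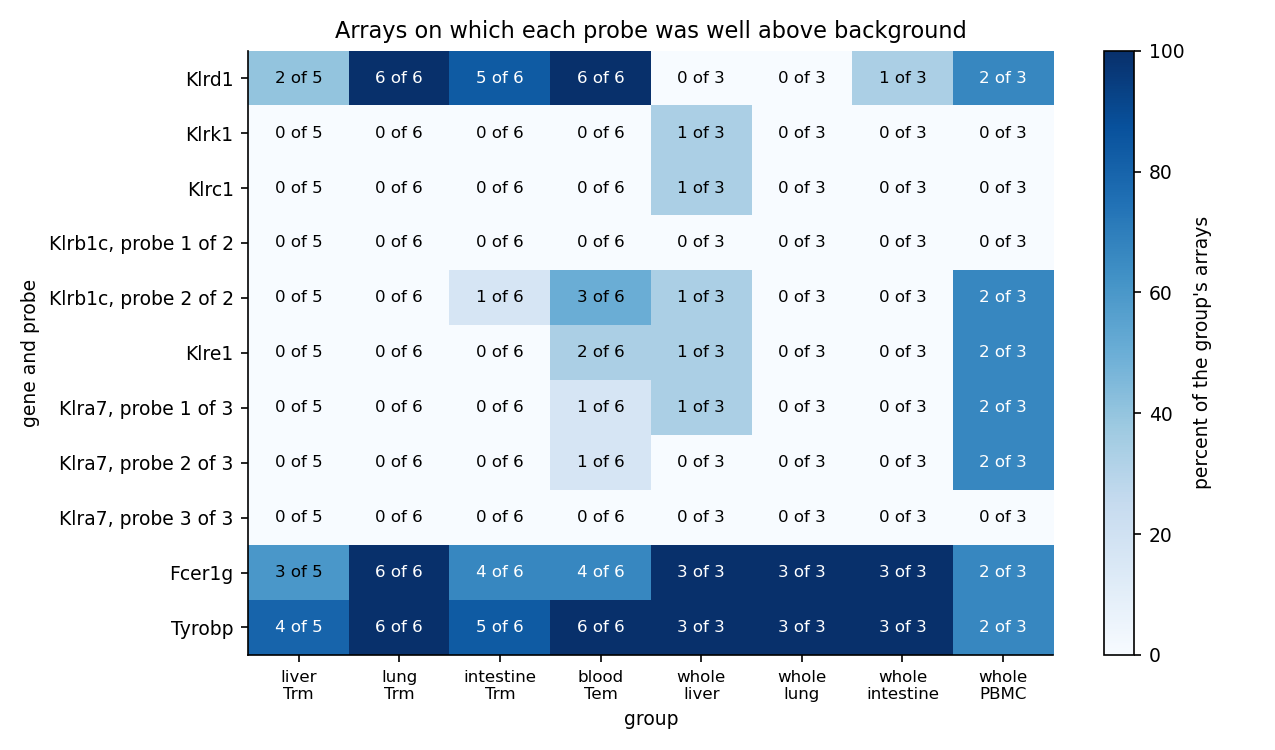
Arrays on which each member's probe was well above background, as a percentage of the arrays of each group (columns), with one row per probe. Klrd1 is detected on 6 of 6 lung Trm and 6 of 6 Tem arrays, and the Klrk1 and Klrc1 rows are empty apart from 1 whole liver array.

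**Figure D2:**
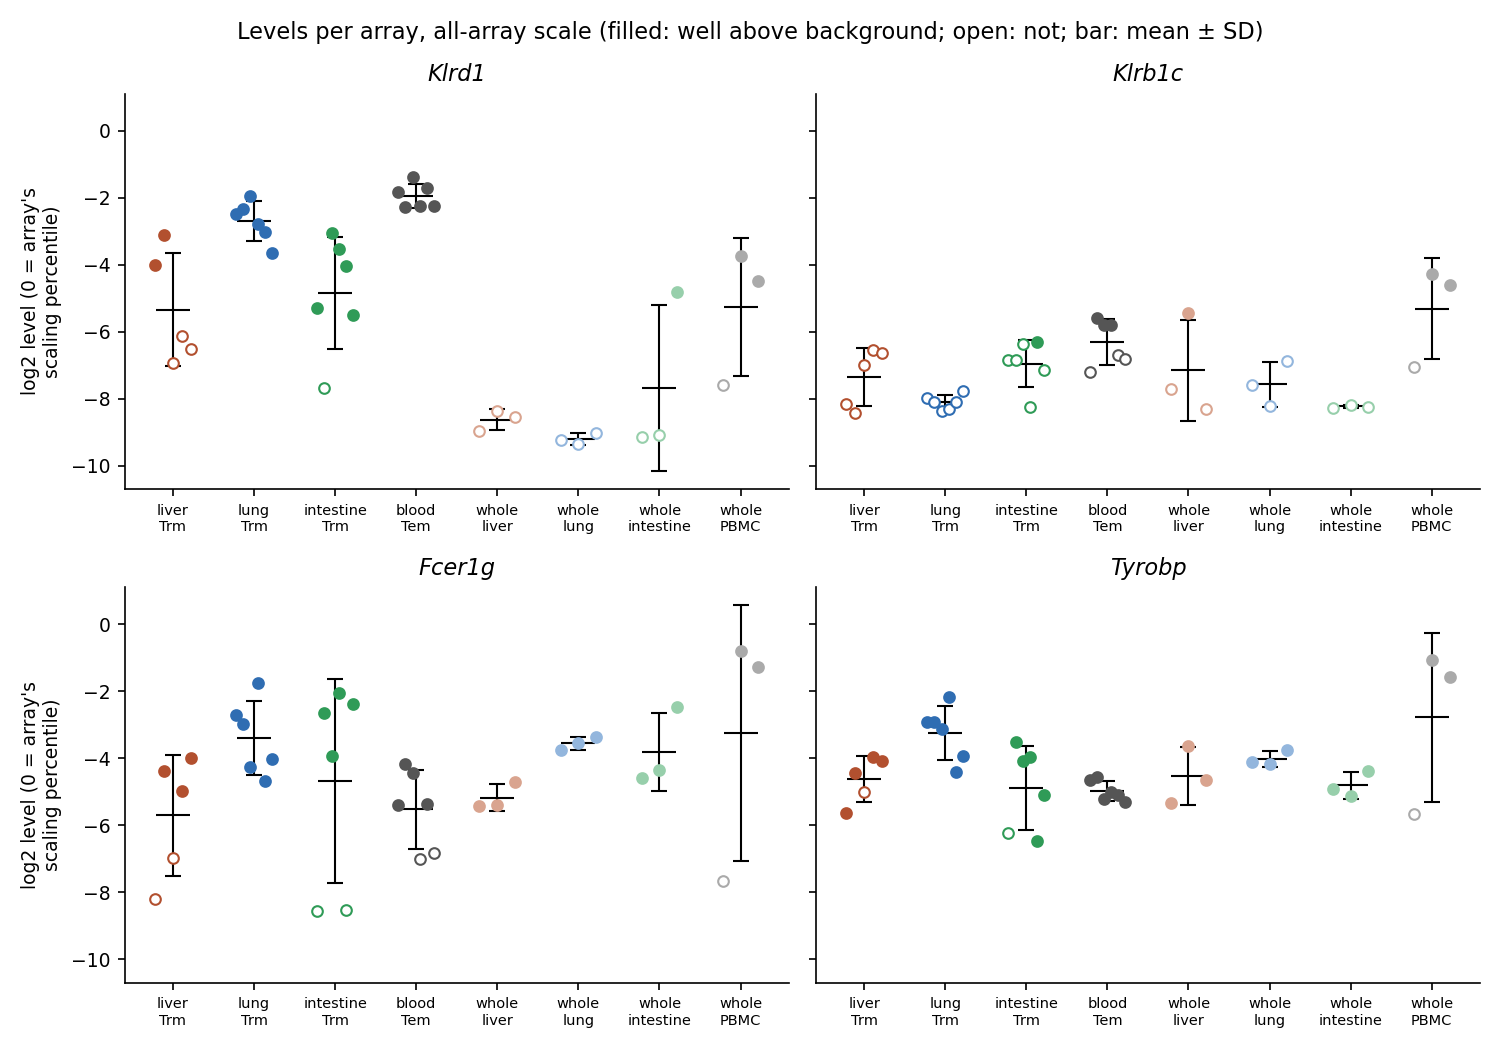
Log2 level of the tested members on every array (0 is the scaling percentile of the array; filled points are well above background, open points are not), with the mean ± SD of each group. Klrd1 is highest in Tem and lung Trm, whereas the groups overlap widely for Fcer1g.

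Klrd1 was lower in liver Trm and intestine Trm than in Tem, and it did not differ detectably between lung Trm and Tem. In liver Trm its level was -3.29, -2.78, -5.68, -5.25 and -5.72 (replicates 1, 2, 3, 5 and 6). In Tem it was -1.83 at the lowest, -1.52 at the median and -1.36 at the highest. Every liver array lay below every Tem array, and the 3 lowest liver arrays were not above background. Liver Trm averaged -4.54 ± 1.40 (SD, n = 5) and Tem -1.55 ± 0.18 (SD, n = 6). The log2 difference of -2.99 ± 0.61 (SE) corresponds to a 7.96-fold lower level (limma, adjusted p = 0.00191). Without overlap, the liver array was necessarily lower on 5 of 5 slides. Klrd1 was the 1 member of 4 called in this comparison, where 40.3% of all 8620 genes were called and the median gene moved by -0.28. Without liver Trm 3 and Tem 3 the difference was -2.61.

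The Klrd1 spread within liver Trm ran beside the hepatocyte markers. The summed linear level of 8 hepatocyte genes was 1.74 and 1.43 on liver replicates 1 and 2, where Klrd1 was above background, and 13.9, 10.2 and 4.80 on replicates 3, 5 and 6, where it was not. In Tem the same sum was 0.0484 to 0.0938. All 8 hepatocyte genes were called higher in liver Trm than in Tem, against 14.9% of all genes. Among the sorted groups Alb, Ahsg, Apoa1, Ttr and Fgb were above background on 3 or more arrays only in liver Trm, so the filter favoured higher liver values. The T cell sum was 2.76 to 7.43 in liver Trm and 6.53 to 11.9 in Tem. Of 8 tested T cell genes 2 were called lower, which is near the share of 25.4% over all genes. The part of these markers in the Klrd1 difference was not tested.

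Intestine Trm showed a like difference with a wider spread. Klrd1 was -6.93 at the lowest, -4.04 at the median and -2.61 at the highest among 6 intestine arrays, all below the lowest Tem array. The mean was -4.25 ± 1.57 (SD, n = 6), and the difference from Tem was -2.70 ± 0.59 (SE), or 6.48-fold lower (limma, adjusted p = 0.00283). Without overlap, intestine was necessarily lower on 6 of 6 slides, with differences of -5.10 to -1.04. Again Klrd1 was 1 of 4 members called, against 17.7% of all genes.

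T cell and gut markers moved beside it. The T cell sum was 4.75, 3.13, 7.03, 8.17, 6.17 and 3.99 on intestine Trm 1 to 6, and Klrd1 was -4.56, -6.93, -2.61, -3.01, -3.52 and -4.85 on the same arrays. The array with the lowest Klrd1 level, replicate 2, had the lowest T cell sum and the highest gut epithelium sum of the 6 (0.603). Against Tem, 2 of 8 tested T cell genes were called lower and 3 of 3 tested gut epithelium genes (Fabp2, Krt20 and Vil1) higher. Over all genes 9.65% were called lower and 8.1% higher. Among the sorted groups Krt20 and Vil1 were above background on 3 or more arrays only in intestine Trm, so the filter favoured higher intestine values. Of the 8 gut epithelium genes with a probe, Apoa4, Sis, Lct and Cdh17 were above background on 0 intestine Trm arrays and Epcam on 1. The part of these markers in the Klrd1 difference was not tested.

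In lung Trm, Klrd1 was -3.07 at the lowest, -2.10 at the median and -1.46 at the highest, all above background. The lung arrays overlapped Tem, and the difference of -0.58 ± 0.59 (SE) was not called (limma, adjusted p = 0.680). Among the resident populations, lung Trm therefore stood above the other two. Lung exceeded liver Trm by 2.41 ± 0.61 log2 units (SE, 5.31-fold, limma, adjusted p = 0.0147), and on 5 of 5 slides. Intestine fell below lung by a difference of -2.11 ± 0.59 (SE, 4.32-fold lower, limma, adjusted p = 0.0250), and on 6 of 6 slides, although the 2 groups overlapped. Single arrays decide both calls: the adjusted p passed 0.05 for lung over liver without liver Trm 5 or 6 (up to 0.0582) and for intestine over lung without lung Trm 2 or 3 or intestine Trm 1 or 6 (up to 0.0622). Between intestine and liver Trm the difference was 0.30 ± 0.61 (SE, limma, adjusted p = 0.777). Tissue markers were also present in lung Trm, where Klrd1 was not called lower than in Tem. The summed level of 6 lung epithelium genes was 0.0452 to 7.54 in lung Trm (median 2.72) and 0.0132 to 0.0556 in Tem. Against Tem, 4 of these 6 genes were called higher, and 0 of 8 tested T cell genes were called. Among the sorted groups Sftpc, Sftpa1, Sftpd and Scgb1a1 were above background on 3 or more arrays only in lung Trm, so the filter favoured higher lung values. The part of these markers in the lung Klrd1 level was not tested.

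**Figure D3:**
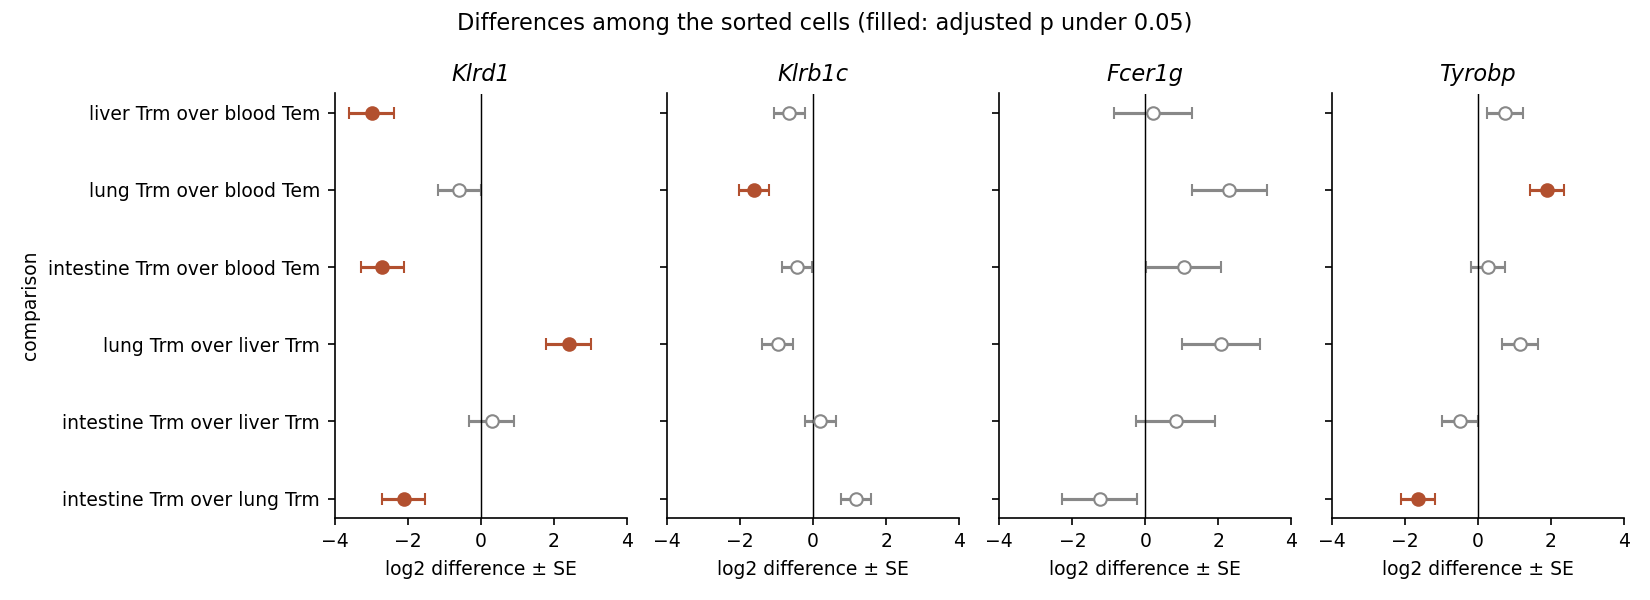
Log2 difference ± SE of the tested members (panels) in the 6 comparisons among sorted cells (rows), with filled points at an adjusted p under 0.05. Klrd1 lies at -2.99 in liver Trm over Tem and at -2.70 in intestine Trm over Tem, and no Fcer1g point is filled.

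The NK1.1 gene Klrb1c was scarcely detected in Trm. Its brighter probe was above background on 0 of 5 liver, 0 of 6 lung and 1 of 6 intestine Trm arrays and on 3 of 6 Tem arrays. Its signal was -7.87 at the lowest, -7.54 at the median and -7.16 at the highest in lung Trm. In Tem it was -6.75, -6.00 and -5.13 at the same points. The groups did not overlap, but the lung values and those of 3 Tem arrays are background signal. limma called the difference (-1.62 ± 0.41, SE, adjusted p = 0.0284, a fold of at least 1.19 by the rule for undetected groups). Klrb1c passed the filter among the sorted groups only through Tem, where it is highest, so a lower lung value was favoured and the call is given as a description. It ended without lung Trm 1, 2 or 3 (adjusted p up to 0.0634), without the filter (adjusted p = 0.0579), with the slide block (-1.62, adjusted p = 0.0520) and with normexp background correction (-0.43). Without any 1 of Tem 2, 3 or 4 the gene was not tested.

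The other receptors stayed near background in the sorted cells. Klre1, which was not tested, ran between -6.98 and -4.38 in Tem, with a median of -6.16 and with Tem 2 and 3 above background. In Trm it was not above background on any array, its highest values being -5.48 in liver, -7.66 in lung and -6.09 in intestine. The liver value came from liver Trm 3, where probes never above background on any sorted array had a median of -5.74, and so marks no detected transcript. Klra7 was above background on 1 Tem array and on no Trm array, and 1 of its 3 probes on no array at all. NKG2D (Klrk1) and NKG2A (Klrc1) were above background on 0 of 23 sorted arrays. This limits what these probes detected at the depth of the arrays and does not show that the transcripts are absent. Klra genes are close copies of one another, as are Klrc1 and Klrc2, so their probes may read more than 1 gene.

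Tyrobp, the DAP12 adaptor, had its highest mean among the sorted cells in lung Trm. Its level there was -3.59 at the lowest, -2.54 at the median and -1.64 at the highest, against -5.40, -4.50 and -4.10 in Tem at the same points. Every lung array exceeded every Tem array, and so lung was necessarily higher on 6 of 6 slides. The difference was 1.91 ± 0.47 (SE), or 3.75-fold (limma, adjusted p = 0.0239). Between lung Trm and Tem, where 3.13% of all genes were called, 2 of 4 members were: Tyrobp, and Klrb1c, which the filter let in only through Tem. Nothing is read from that count. The Tyrobp call was lost without lung Trm 1, 2 or 4 or without Tem 3, with adjusted p up to 0.0586, while the difference stayed between 1.70 and 2.09.

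In the other Trm populations Tyrobp overlapped Tem. It was -4.92, -4.11, -3.74, -3.09 and -3.27 in liver Trm, a difference from Tem of 0.75 ± 0.49 (SE, limma, adjusted p = 0.214). In intestine Trm it was -5.98 at the lowest, -4.04 at the median and -2.78 at the highest, a difference from Tem of 0.28 (limma, adjusted p = 0.705). Lung exceeded liver Trm by 1.15 ± 0.49 (SE), which was not called (limma, adjusted p = 0.0884). Intestine differed from lung Trm by -1.63 ± 0.47 (SE, 3.09-fold lower, limma, adjusted p = 0.0299), with overlapping groups and lower values on 6 of 6 slides. Klrd1 and Tyrobp were the 2 of 4 members called there, against 9.5% of all genes. The Tyrobp part of that count is fragile, since it was lost without any 1 of 7 arrays (lung Trm 1, 2, 3 or 4, or intestine Trm 1, 5 or 6), with adjusted p up to 0.0843. Klrd1 alone was called between lung and liver Trm, where 17.8% of genes were called. Between intestine and liver Trm limma called 0 of 4 members, with 0 also at an unadjusted p under 0.05, against 11.7% of genes.

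Fcer1g, the Fc receptor gamma chain, varied most within groups and was called in none of the comparisons among sorted cells. In liver Trm it was -7.49, -4.04, -5.73, -4.11 and -3.18. In lung Trm it was -3.85 at the lowest, -2.94 at the median and -1.22 at the highest, and in Tem -6.44, -4.98 and -3.72. Lung exceeded Tem on 6 of 6 slides, but the groups overlapped and the difference of 2.30 ± 1.02 (SE, 4.93-fold) was not called (limma, adjusted p = 0.282). Intestine Trm divided widely: Fcer1g lay between -3.47 and -1.54 on the 4 arrays above background and at -7.83 and -8.02 on replicates 1 and 5, which were not. Tyrobp was lowest on those same arrays, at -5.53 and -5.98.

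Myeloid markers moved beside the adaptors in part. The summed level of 19 monocyte, macrophage and dendritic cell genes was 0.929 and 1.11 on intestine Trm 1 and 5, against 1.43 to 2.73 on the other 4 intestine arrays. Lung Trm 4 had the highest lung sum (3.44) and the highest level of both adaptors. Tem 3 had a sum of 3.40 and, on the scale of the sorted arrays, the lowest Tyrobp level in Tem (-5.40). On the scale of all arrays, which the sums use, the lowest Tem level (-5.32) was on another array. Between lung Trm and Tem, 3 of 12 tested genes of that list were called higher (Lyz2, Marco and Sirpa) and so were 3 of 6 tested neutrophil, mast cell and basophil genes (S100a8, S100a9 and Retnlg). Among the sorted groups Lyz2, Sirpa and Retnlg were above background on 3 or more arrays only in lung Trm. Marco, S100a8 and S100a9 were so only in lung and liver Trm. The filter thus favoured higher lung values, and these counts are given as a description. In liver Trm against Tem, where neither adaptor was called, 5 of 12 genes of the first list were higher and 1 lower, and 4 of 6 of the second were higher. The median difference of those 12 genes was 1.37, while background medians were -7.15 in liver Trm and -8.47 in Tem. Lyz2, Sirpa, Mpeg1 and Ms4a7 were above background on 0 liver arrays, and Itgax and Aif1 on 1. Csf1r, Cd14 and Marco were on 3, and Ctss, Itgam and Clec4f on all 5. A higher call in the first list therefore need not mark a detected transcript. Over all genes 2.1% were called higher in lung Trm, and 14.9% higher and 25.4% lower in liver Trm. Liver Trm 2 had the highest liver sum (1.77) but the highest level of neither adaptor. The sums of the first list overlapped, at 1.29 to 3.44 in lung Trm and 1.13 to 3.40 in Tem, as did those of the second, at 2.06 to 3.50 in lung Trm and 1.72 to 3.19 in Tem. The brightest genes weigh most in these sums: Ctss and Itgam in the first list and Csf3r in the second, all detected on every sorted array. Their means were -0.36, -0.63 and 0.88 in Tem and -0.26, -1.13 and 0.81 in lung Trm. The sums therefore say little about the dimmer markers. Fcgr1, Spi1, Fcer1a, Ms4a2, Cpa3 and Mcpt2 were above background on no array. The part of other cells in the adaptor levels was not tested.

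**Figure D4:**
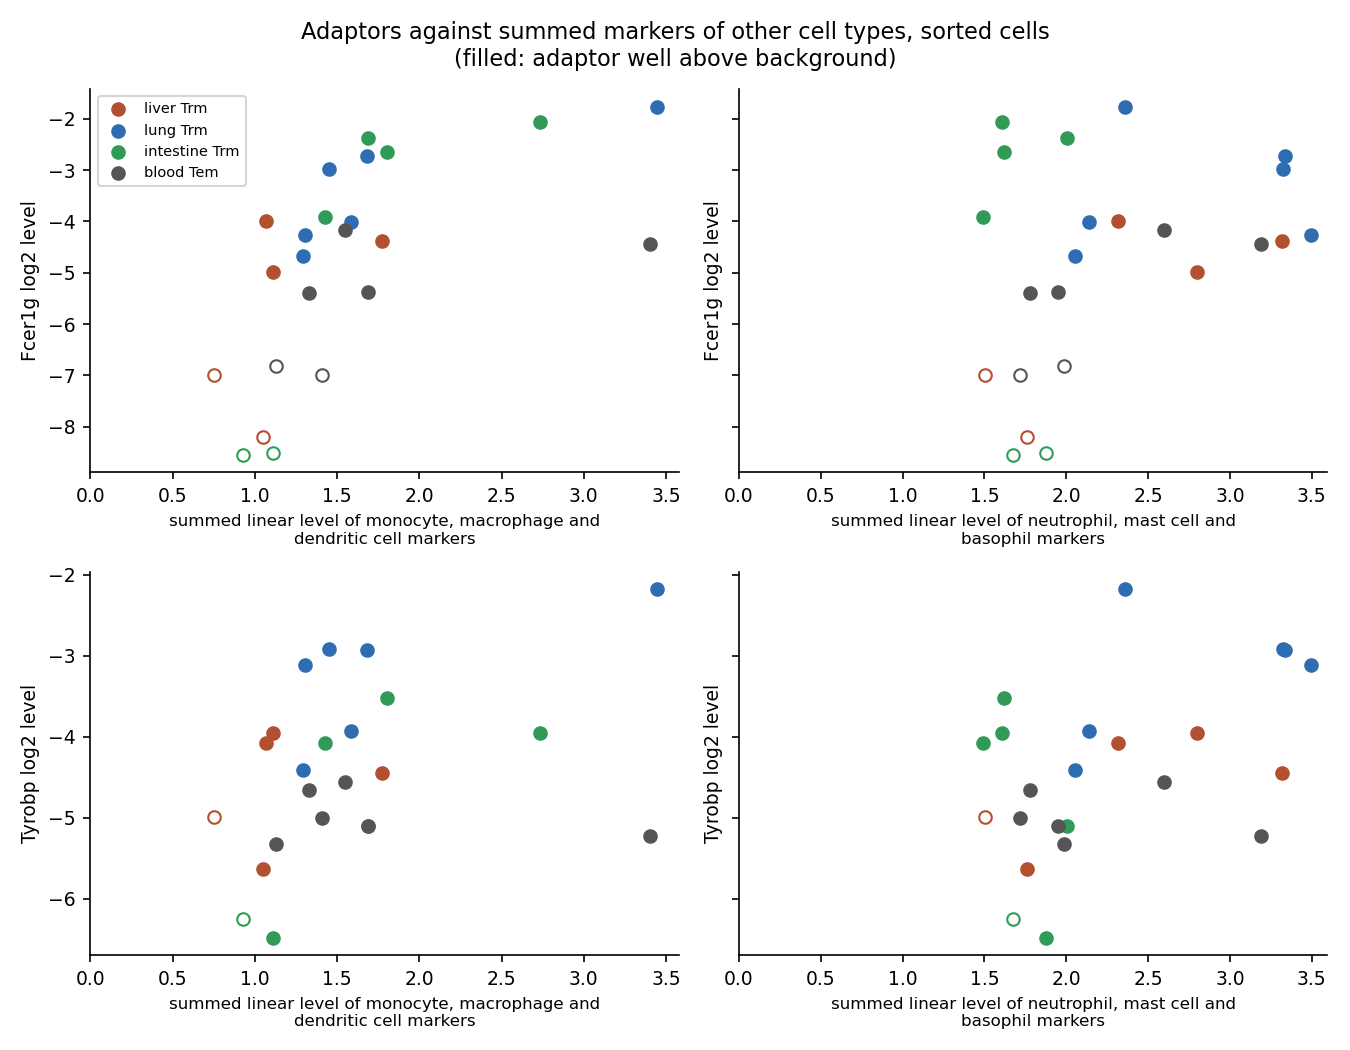
Log2 level of Fcer1g and Tyrobp on each sorted array (vertical axes) against the summed linear level of myeloid and granulocyte markers (horizontal axes), with filled points where the adaptor was well above background. Lung Trm 4 has the highest Fcer1g level, beside a monocyte, macrophage and dendritic cell sum of 3.44. By group means, Ctss, Itgam and Csf3r weigh most in the sums.

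NK cell markers gave low sums throughout. Over 8 genes with a probe, the sum was 0.0791 to 0.0975 in liver Trm, 0.0222 to 0.0561 in lung Trm, 0.0331 to 0.0616 in intestine Trm and 0.0630 to 0.347 in Tem, and 0.0569 to 0.390 in PBMC. These sums include background signal: liver Trm 3 had 0 of the 8 genes above background and a sum of 0.0867. On the scale of all arrays, probes never above background had medians of -7.97 in liver Trm and -8.84 in lung Trm. The higher liver sums therefore do not show more NK transcripts. Klra9 was above background on no array. Ncr1, which encodes NKp46 and marks NK cells, was above background on 3 of 5 liver, 3 of 6 lung and 2 of 6 intestine Trm arrays and on 2 of 6 Tem arrays. Its signal was higher in liver Trm than in Tem by 1.35 ± 0.42 (SE, limma, adjusted p = 0.0169), but 2 of 5 liver and 4 of 6 Tem arrays gave background signal. Probes never above background on a sorted array had a median of -7.15 in liver Trm and -8.47 in Tem. Ncr1 passed the filter among the sorted groups only through liver and lung Trm, so higher values there were favoured and the liver call is given as a description. In lung Trm the Ncr1 difference was 0.28 (limma, adjusted p = 0.780) and in intestine Trm 0.60 (limma, adjusted p = 0.323). Of the 3 tested NK markers (Ncr1, Eomes and Klra8), 1 was called higher and none lower in liver Trm against Tem (median -0.75), 1 lower in lung Trm (median -2.12) and 2 lower in intestine Trm (median -2.26). Eomes, a transcription factor of NK and memory CD8+ T cells, was the second in intestine Trm, with a difference of -2.26 ± 0.74 (SE, limma, adjusted p = 0.0368). Over all genes 14.9% were called higher in liver Trm, and 1.03% and 9.65% lower in lung and intestine Trm. The filter let Ncr1 in only through Trm and Klra8 only through Tem, so nothing is read from these counts.

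Set against the unsorted tissues, on the scale of all 35 arrays, Klrd1 was higher in each sorted population. In liver Trm it was -3.99, -3.12, -6.94, -6.12 and -6.53, against -8.97, -8.36 and -8.55 in whole liver, where it was not above background. The groups did not overlap, and the difference was 3.29 ± 0.91 (SE, limma, adjusted p = 0.00477). No lower bound is given, since 3 of the 5 liver arrays were not above background either, and liver Trm 3 (-6.94) lay at the median of its never detected probes (-7.01). In lung Trm it was -3.66 at the lowest, -2.63 at the median and -1.95 at the highest, against -9.23, -9.36 and -9.02 in whole lung. That difference, 6.50 ± 0.88 (SE), was at least 21.5-fold (limma, adjusted p = 3.7e-07). Klrd1 was the 1 member of 4 called in each of these comparisons, against 32.2% of all 10635 genes for liver and 41.6% for lung.

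In the gut and blood contrasts the Klrd1 call hung on single arrays. In intestine Trm Klrd1 was -7.67 at the lowest, -4.65 at the median and -3.06 at the highest, against -9.16, -9.08 and -4.81 in whole intestine. The groups overlapped, and the difference of 2.84 ± 0.88 (SE, 7.15-fold, limma, adjusted p = 0.0124) lost its call without whole intestine 1 (2.10) or 2 (2.14), with adjusted p up to 0.131. The Klrd1 call also ended with quantile normalization and the deposited values (2.51 each) and with normexp (1.38), with adjusted p up to 0.0649. It was the 1 of 4 members called, against 31.8% of genes. In Tem Klrd1 was -2.28 at the lowest, -2.03 at the median and -1.39 at the highest, against -7.60, -3.73 and -4.47 in PBMC. The difference of 3.32 ± 0.88 (SE, 9.96-fold, limma, adjusted p = 0.00192) was 1.39 (limma, adjusted p = 0.202) without PBMC 1.

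The adaptors did not follow Klrd1 in these contrasts. Tyrobp was -5.32 at the lowest, -5.05 at the median and -4.55 at the highest in Tem, against -5.67, -1.06 and -1.59 in PBMC. Tem was lower than PBMC by a difference of -2.20 ± 0.69 (SE, 4.60-fold lower, limma, adjusted p = 0.00681). PBMC 2 and 3 lay above every Tem array and PBMC 1 below them all. Without PBMC 1 the difference was -4.41 (limma, adjusted p = 8.8e-06), and without PBMC 2 or 3 the call was lost (-1.35 and -1.61). Klrd1 and Tyrobp were the 2 of 4 members called, in opposite directions, against 55.2% of genes, whose median was 0.84. Fcer1g differed by -2.28 (limma, adjusted p = 0.125) in Tem over PBMC, and by -5.24 (limma, adjusted p = 0.00332) without PBMC 1. The receptor Klrb1c differed by -0.99 (limma, adjusted p = 0.140), and by -2.61 (limma, adjusted p = 0.00287) without PBMC 1. It was above background on 3 of 6 Tem and 2 of 3 PBMC arrays. In Trm over whole organ Tyrobp differed by -0.08 in liver, 0.77 in lung and -0.08 in intestine, none of them called (limma, adjusted p = 0.949, 0.407 and 0.938). Of 13 tested monocyte, macrophage and dendritic cell genes 2 were called higher and 5 lower in Tem than in PBMC.

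The order of the 8 groups differed between members. For Klrd1 it was Tem (-1.95 ± 0.37), lung Trm (-2.71 ± 0.60), intestine Trm (-4.84 ± 1.69), PBMC (-5.27 ± 2.05), liver Trm (-5.34 ± 1.68), whole intestine (-7.68 ± 2.49), whole liver (-8.63 ± 0.31) and whole lung (-9.21 ± 0.17). PBMC 2 and 3 (-3.73 and -4.47) both lay above the intestine Trm mean, so without PBMC 1 that neighbouring pair changes places. These are means ± SD on the scale of all arrays, and the ranges of neighbours overlapped except between whole liver and whole lung, where no array was above background. Tyrobp ran from PBMC (-2.77 ± 2.52) and lung Trm (-3.24 ± 0.80) down to Tem (-4.98 ± 0.31), and the ranges of all neighbours overlapped. Fcer1g also had PBMC (-3.25 ± 3.82) and lung Trm (mean -3.40) at the top and liver Trm (-5.71 ± 1.81) at the bottom, with all neighbours overlapping. Klrb1c had its highest means in PBMC (-5.32 ± 1.51) and Tem (-6.31 ± 0.67), again with overlapping neighbours throughout.

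Over the 8 group means, Fcer1g and Tyrobp had a Pearson r of 0.741, whereas Klrd1 had -0.18 with Fcer1g and 0.09 with Tyrobp. The means share 1 scaling of all arrays, the sorted groups share slides with each other and the whole tissues lie on other slides, and the values are descriptive. The genes with the most similar group means to Klrd1 were Rnf2 (0.987), Rasgrp1 (0.984), an activator of Ras downstream of the T cell receptor, and Fam169b (0.982). Tyrobp was most like Alox5ap (0.983), the 5-lipoxygenase activating protein, Nfam1 (0.952) and Pram1 (0.922). Fcer1g was most like Alox5 (0.937), which encodes 5-lipoxygenase, Csf2ra (0.919), a chain of the GM-CSF receptor, and Cd9 (0.893). Klrb1c was most like Spn (0.926), which encodes CD43, Irak1bp1 (0.907) and Ube2o (0.907).

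In the wider NK receptor pathway of 84 other genes, 37 were tested among the sorted cells. In liver Trm against Tem 3 were called higher and 14 lower, with a median of -0.75 against -0.28 over all genes. In lung Trm 1 was higher and 2 lower (median -0.37 against -0.10), and in intestine Trm 3 were higher and 4 lower (median -0.25 against -0.03). Over all genes, the share called higher was 14.9% in liver, 2.1% in lung and 8.1% in intestine Trm, and the share called lower was 25.4% in liver, 1.03% in lung and 9.65% in intestine Trm. Of 21 tested adaptor and signalling genes, 1 was higher and 9 lower in liver Trm, none was called in lung Trm, and 2 were higher and 2 lower in intestine Trm. Of 7 tested ligand genes, Cd48 alone was called, lower in liver Trm (-2.22 ± 0.40, SE, limma, adjusted p = 0.000708).

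Klrg1, an inhibitory lectin-like receptor for cadherins found on antigen-experienced T cells, had the largest difference of the pathway in each Trm population. It was above background on 6 of 6 Tem arrays and on 0 liver, 0 lung and 3 intestine Trm arrays. Klrg1 was at least 6.49-fold lower in liver Trm (-4.87 ± 0.60, SE, limma, adjusted p = 8.1e-06) and at least 13.9-fold lower in lung Trm (-5.94 ± 0.58, SE, limma, adjusted p = 3.4e-06). In intestine Trm it was lower by a difference of -3.92 ± 0.58 (SE, limma, adjusted p = 6.54e-05). Klra8, the activating receptor Ly49H, was above background on 6 of 6 Tem arrays and was at least 2.05-fold lower in lung and at least 1.497-fold lower in intestine Trm (limma, adjusted p = 0.00111 and 0.000115). Klra8 too passed the filter among the sorted groups only through Tem, so lower Trm values were favoured. Liver Trm differed in Klra8 by -0.75 (limma, adjusted p = 0.150). Klra1, the inhibitory receptor Ly49A, went the other way: it was above background on 4 liver, 6 lung and 4 intestine Trm arrays and on 1 Tem array. Its differences were 2.38 ± 0.73, 2.89 ± 0.69 and 2.20 ± 0.69 in liver, lung and intestine Trm (SE, limma, adjusted p = 0.0153, 0.0206 and 0.0309). Klra1 passed the filter among the sorted groups only through Trm, so higher Trm values were favoured and its calls are given as a description. The other 5 Tem arrays gave background signal for Klra1, and background was higher in liver Trm than in Tem (medians of -7.15 and -8.47), so the sizes are not exact.

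Hcst, the DAP10 adaptor of NKG2D encoded beside Tyrobp, was above background on every sorted array. Its differences from Tem were -0.48, -0.22 and -0.38 in liver, lung and intestine Trm, and none was called (limma, adjusted p = 0.0892, 0.669 and 0.234). It was higher than in the whole tissue by 4.60 for liver, 4.13 for lung and 3.31 for intestine cells and by 1.96 for Tem, each called by limma. Sh2d1a, the adaptor SAP of SLAM family receptors, was lower in liver Trm (-2.30 ± 0.42, SE, limma, adjusted p = 0.000768) and intestine Trm (-1.33, limma, adjusted p = 0.0258) than in Tem. In lung Trm the difference of -0.75 was not called (limma, adjusted p = 0.390).

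**Figure D5:**
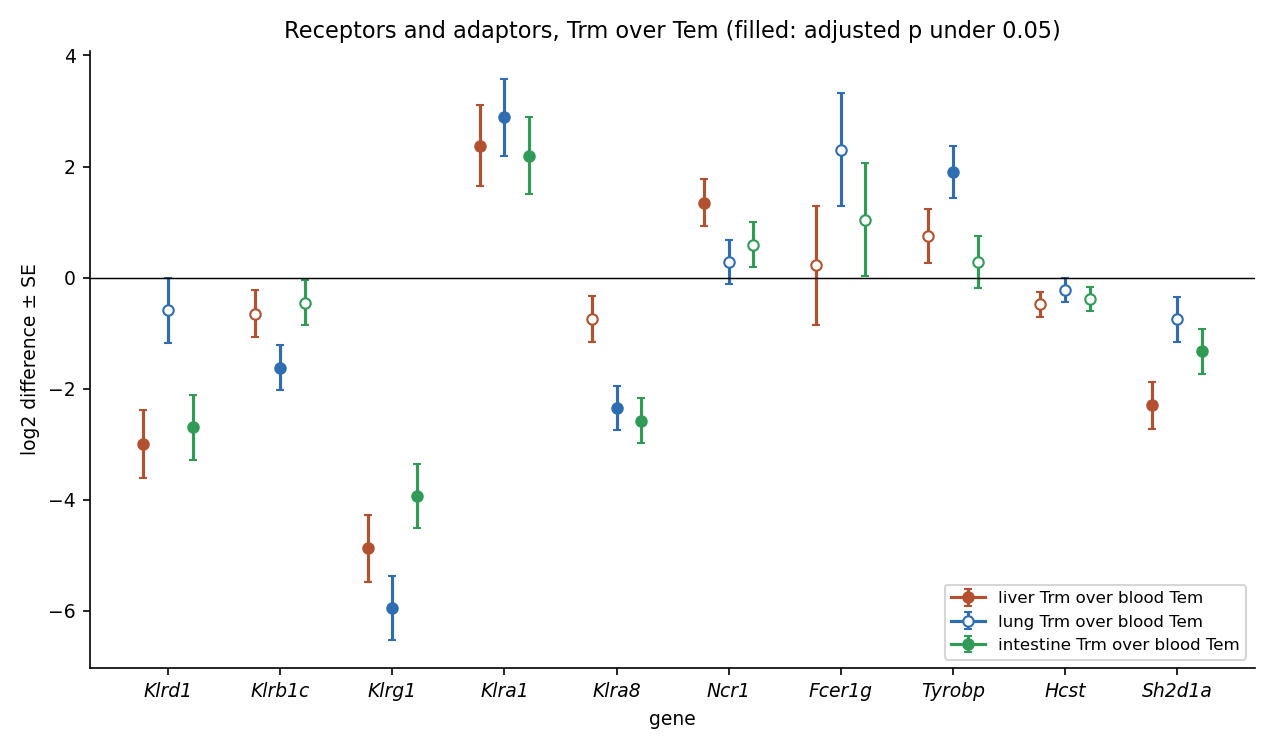
Log2 difference ± SE of receptors and adaptors in liver, lung and intestine Trm over Tem, with filled points at an adjusted p under 0.05. Klrg1 lies at -5.94 in lung Trm, and Klra1 lies above 0 in all 3 Trm populations.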

How the data were processed

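The labels group 35 mouse 1-colour arrays into 8 groups. The authors deposited scanner files with an intensity per spot, background-subtracted by Feature Extraction 11.0.1.1 per the file headers (the submitters' processing notes name 10.7 and Partek), and a table of log2 values. The log2 table matched quantile-normalized intensities (largest median absolute difference 0.000465). Processed intensities were averaged per probe, taken to log2 and scaled to each array's 75th percentile over 4043 probes (23 sorted arrays) or 1342 probes (all 35) well above background throughout. A probe needed the background flag on 3 arrays of some group, and the brightest kept probe stood for its gene. limma 3.58.1 (R 4.3.3) was fitted across 8620 or 10635 genes, with two-sided p-values adjusted by Benjamini-Hochberg and calls at 0.05. A gene above background on no array of a group has a bound: the brighter group's mean against the lowest signal above background on each dimmer array. Normexp used median spot columns, and the fits were tested on simulated data.

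RefSeq named 27508 probes, and 11921 stayed unnamed. The members, lists, comparisons and tests were chosen with earlier results of these data known. Named genes are all members, the 3 called pathway genes with the largest difference in each Trm comparison with Tem, Hcst, Ncr1 and Klrg1, and the 3 genes most like each tested member; Cd48 and the marker genes were named after their values were seen. Replicate numbers follow slides, but same-slide arrays did not deviate together: 7 of 33 pairs had a correlation over 0.1, and the median was -0.008.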

Additional observations from a re-analysis of the deposited data

Results flagged for a closer look

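In intestine Trm, replicate 4 had the lowest Klrb1c signal of 6, at -7.72, and its gap to the next array was 0.636 of the group's range. It was not above background there. This was 1 of 16 groups examined, and chance flags about 1 in 20. Without that array limma called Klrb1c signal higher in intestine than in lung Trm (1.44, adjusted p = 0.0240), but only 1 of 6 intestine and 0 of 6 lung arrays were above background.

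In direct limma tests between Trm populations, lung Trm differed from both others in Klrd1 and from intestine Trm alone in Tyrobp. Klrd1 was 2.41 log2 units higher in lung than in liver Trm. Intestine Trm differed from lung Trm by -2.11 in Klrd1 and by -1.63 in Tyrobp. Each of these calls was lost without certain single arrays, and Tyrobp was not called between lung and liver Trm (limma, adjusted p = 0.0884).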

How the results depend on the processing

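Of 760 recomputed member values, 663 kept their direction and side of the threshold, 35 lost a call, 20 gained one and 42 changed sign. Klrd1 in liver Trm over Tem stayed between -3.51 and -2.07, and in intestine Trm over Tem between -3.02 and -2.15, called under every alternative run. The number of members called, of 4 tested or of 8 without a filter, moved as follows. In liver Trm over Tem it was 2 with quantile normalization, with the percentile over all probes and with the deposited log2 values, and 3 without a filter (Klrd1, Klrk1 and Klrc1). In lung Trm over Tem it was 1 with normexp, with the stricter filter and with the slide as replicate block, and 0 without liver Trm 3 and Tem 3. In lung over liver Trm it was 2 with the percentile over all probes and with normexp, and 4 without a filter (Klrd1 higher, and Klra7, Klrk1 and Klrc1 lower). In intestine over lung Trm it was 1 with normexp and without a filter. In intestine Trm over whole intestine it was 0 with quantile normalization and the deposited values, and 2 with the percentile over all probes and without whole liver 2 and PBMC 1, an alternative chosen after seeing the data. In Tem over PBMC it was 4 with the percentile over all probes. Without whole liver 2 and PBMC 1 the Klrd1 call there was lost (1.39), while Fcer1g (-5.24) and Klrb1c (-2.62) gained one. The cause was not tested. With each array left out in turn, the count ran 0 to 2 in lung Trm over Tem, lung over liver Trm and intestine Trm over whole intestine, 0 to 3 in intestine over lung Trm, and 1 to 3 in Tem over PBMC; it stayed at 1 in liver Trm and intestine Trm over Tem and in liver and lung Trm over their organs, and at 0 in intestine over liver Trm.

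Every value that changed sign belonged to an uncalled difference. Under quantile normalization these were Fcer1g liver Trm over Tem (-0.20), Fcer1g and Tyrobp liver Trm over whole liver (0.11 and 0.44) and Tyrobp intestine Trm over whole intestine (0.14). The deposited values gave -0.22, 0.11, 0.44 and 0.14. The percentile over all probes turned Fcer1g liver Trm over Tem (-0.25) and, over whole liver, Klrb1c (0.21) and Tyrobp (0.33). Normexp turned Klrb1c in liver Trm over Tem (0.57), intestine Trm over Tem (0.12), intestine over liver Trm (-0.45) and liver Trm over whole liver (0.14), Klrd1 intestine over liver Trm (-0.074), and Tyrobp over whole liver (0.028) and whole intestine (0.042). Without liver Trm 3 and Tem 3 these were Klrd1 intestine over liver Trm (-0.029) and Tyrobp over whole liver (0.16) and whole intestine (0.056). Without whole liver 2 and PBMC 1 they were Klrb1c (0.35) and Tyrobp (0.066) over whole liver and Fcer1g lung Trm over whole lung (-0.39). Leaving out single arrays gave Klrb1c intestine over liver Trm -0.19 to 0.47, Klrd1 intestine over liver Trm -0.038 to 0.83, Fcer1g liver Trm over Tem -0.21 to 0.86, Tyrobp intestine Trm over Tem -0.026 to 0.61, Tyrobp intestine Trm over whole intestine -0.36 to 0.23, and Fcer1g lung Trm over whole lung -0.17 to 0.45. Over whole liver the ranges were -0.96 to 0.10 for Fcer1g, -0.77 to 0.66 for Klrb1c and -0.48 to 0.37 for Tyrobp.

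The median of all genes in liver Trm over Tem was -0.28, and -0.36 with quantile normalization, -0.75 with the percentile over all probes and 0.18 with normexp. Calls over all genes in lung over liver Trm were 3383 with quantile normalization against 1532, and without a filter calls in liver Trm over Tem were 13974 against 3477. Without a filter Klrk1 and Klrc1 were called higher in liver Trm over Tem (1.33 each, limma, adjusted p = 0.0116), although neither was above background on a sorted array. The median difference over all named genes was 1.22 there. With the slide as replicate block, Klrd1 was -2.93 in liver Trm over Tem and 2.34 in lung over liver Trm; the block ended the Klrb1c call in lung Trm over Tem and no other. Klre1 was called lower in lung Trm over Tem (-1.84, limma, adjusted p = 0.0193) without a filter. Signal over background limits the receptors: 4 of 8 members with a probe did not pass the filter.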
